A study of Mus musculus with 18 samples.

Results

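Non-secretory epithelium of the lactating mammary gland was compared with that of the adult virgin gland, in 2 classes of cell: basal cells and mature luminal (ML) cells. A droplet was used if it held 500 or more detected genes, under 20% mitochondrial transcripts and under 50% of its unique molecular identifiers (UMIs, each standing for 1 captured transcript) in 8 milk genes (Csn1s1, Csn1s2a, Csn1s2b, Csn2, Csn3, Wap, Lalba and Glycam1). It was called basal if Krt5 and Krt14 together exceeded Krt8 and Krt18 and if Acta2, Cxcl14 and Il17b summed to at least 2 UMIs. It was called ML if Krt8 and Krt18 exceeded Krt5 and Krt14 and if Prlr, Cited1, Areg, Pgr and Esr1 summed to at least 3 UMIs. These genes, the milk genes and the mitochondrial genes therefore give no findings below, although counts over all genes tested include them. The rule found 8095 basal and 7732 ML cells, 15827 of the 25137 usable cells in 5 libraries, which held 41885 of the 149371 barcodes of the series of 18 libraries. Adults were virgin FVB/NJ females of 10 weeks (libraries A10, P7 and D12). Lactating FVB/NJ females were taken 10 days post birth (libraries F11 and D6). All libraries were 10x Chromium libraries of several pooled mice, sorted for epithelial cells after blood and endothelial cells had been depleted, and the mice were not staged for estrus. With 3 libraries against 2, p-values measure the spread between these libraries of pooled mice, and the adult group differs from the lactation group in parity as well as in milk production. The paper names no lactation library among those processed together with an adult library, so processing cannot be told apart from stage. Some ML cells lay at the cut of 3 UMIs: 181 of 4038 in A10, 46 of 1239 in P7, 166 of 2036 in D12, 23 of 261 in F11 and 16 of 158 in D6. At 2 UMIs, just below it, stood 439, 47, 322, 35 and 29 cells. The median ML cell held 36, 17 and 35 UMIs of the ML rule genes in A10, P7 and D12 but 8 in both F11 and D6. The lactation ML cells were thus nearer the cut. At most 4 basal cells of any library stood at their cut and at most 11 just below it.

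The mammary duct and alveolus are lined by luminal cells and wrapped by basal cells. Most basal cells are myoepithelial: they carry smooth muscle actin and myosin, contract when oxytocin is released on suckling, and make the basement membrane. Milk is made by secretory alveolar cells, which descend from luminal progenitors. ML cells are the hormone-sensing luminal cells. They carry the estrogen, progesterone and prolactin receptors and pass hormone signals to their neighbours by secreted factors.

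The lactation libraries held fewer usable basal and ML cells and much milk RNA. Basal cells numbered 3512, 1175 and 2234 in A10, P7 and D12 and 679 and 495 in F11 and D6, and ML cells 4038, 1239 and 2036 against 261 and 158. The milk limit removed 3075 droplets of F11 and 3824 of D6 and none of the adult libraries. A basal cell held a median of 3896, 1947 and 4476 UMIs in the adults and 1735 and 2324 in lactation. The lactation sums are therefore shallow, at 1307197 and 1600262 UMIs for basal cells and 804690 and 582722 UMIs for ML cells of F11 and D6, against 2541165 to 32669922 UMIs per class in the adults. P7 stood apart from the rest, with barcodes of 14 bases and 0.468% mitochondrial UMIs where the other 4 libraries had 3.23 to 5.97%.

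Milk RNA was found in every kind of droplet in lactation. The 8 milk genes took 32.9% of basal UMIs in F11 and 6.66% in D6, and at most 0.635% in any adult class. Cells that should make no milk gave the background: droplets without Epcam and with at most 2 keratin UMIs, holding either Ptprc, the leukocyte antigen CD45, or Col3a1, a fibroblast collagen. Milk genes took 28.8% of the UMIs of Col3a1 cells in F11 and 6.19% in D6, and 26.5% and 5.56% of those of Ptprc cells, so basal cells stood near the background of their own library. ML cells held 25.2% and 22.2%, and in D6 this was above the background, although the median D6 ML cell held 5.96% and the upper decile lay at 33.8%. Background cells were few: A10, P7, D12, F11 and D6 had 117, 34, 2, 39 and 320 Col3a1 cells and 0, 0, 0, 13 and 188 Ptprc cells. In F11 Col3a1 cells 1 UMI was worth 11.6 CPM (a gene's UMIs scaled to a fixed total per sum), which leaves genes of lower level unresolved there.

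**Figure D1:**
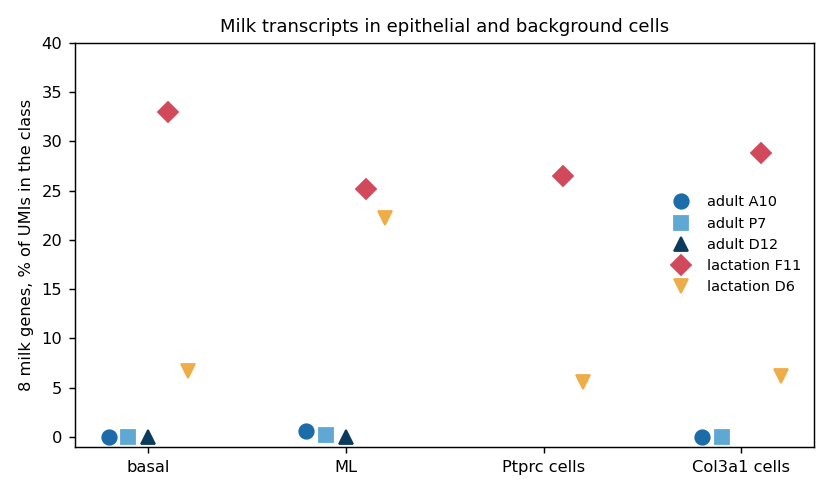
Share of UMIs in the 8 milk genes (y axis, percent) for basal cells, ML cells, Ptprc cells and Col3a1 cells of each library (1 point per library with at least 10 such cells). Lactation basal points (32.9 and 6.66%) lie near the Ptprc and Col3a1 points of the same library, and the D6 ML point (22.2%) lies above them.

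The basal label held in both groups, but lactation basal sums also carried RNA of other cell types. Markers of basal cells outside the rule (such as Krt17, Myh11, Mylk, Tagln and Oxtr) summed to 8794, 18959 and 11200 CPM in the adults and 13435 and 12898 CPM in lactation. Adipocyte markers summed to 2.02 to 19.1 CPM in adult basal cells but 2795 CPM in F11 and 15639 CPM in D6. Red blood cell markers summed to 12.5 to 32.7 CPM in the adults against 1219 and 12624 CPM, and endothelial markers to 10.6 to 14.0 CPM against 366 and 2116 CPM. Immune markers reached 575 and 1838 CPM and pericyte markers 197 and 816 CPM in lactation, where no adult exceeded 76.9 and 42.1 CPM, while fibroblast markers (324 and 414 CPM) were near the adult range of 218 to 381 CPM. A second set of sums, chosen after these values were seen, left out basal droplets with more than 0.5% of their UMIs in those 6 marker lists. It kept 614 of 679 basal cells in F11 and 273 of 495 in D6, and at least 1172 cells in every adult library. In D6 a larger share of UMIs than of cells was left out. There 1 UMI made 1.72 CPM in the reduced sum, and 3 UMIs made 1.87 CPM in the whole one. In the second set of sums adipocyte markers fell to 471 and 383 CPM and red blood cell markers to 85.5 and 58.6 CPM in F11 and D6, and basal markers stood at 13902 and 16837 CPM. Markers of luminal progenitors and alveolar cells were not among the 6 lists. In basal sums they stood at 9390 and 3543 CPM in F11 and D6 against 1875 to 2966 CPM in the adults, and in the second set they were still at 9898 and 5063 CPM.

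**Figure D2:**
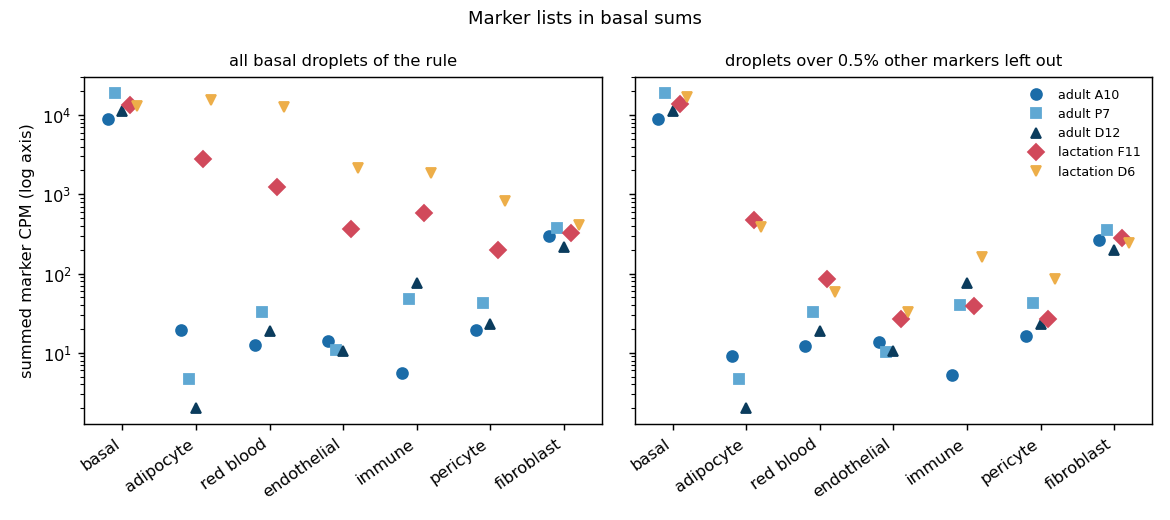
Summed CPM (log axis) of the basal, adipocyte, red blood cell, endothelial, immune, pericyte and fibroblast marker lists in the basal cells of each library, over all droplets of the rule on the left and with other-cell droplets left out on the right. Basal markers lie at 8794 to 18959 CPM in the adults and at 13435 and 12898 CPM in lactation on the left, and lactation adipocyte sums of 2795 and 15639 CPM drop to 471 and 383 CPM on the right.

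The ML label held less well in lactation. ML markers outside the rule (such as Foxa1, Tbx3, Prom1 and Wnt4) summed to 1528, 2270 and 1927 CPM in the adults and to 2804 CPM in F11, but to 805 CPM in D6, and Greb1 had no UMI in either lactation sum. Calca, 1 of these 10 markers, made up most of the F11 sum. Without it the other 9 summed to 1527, 2256 and 1904 CPM in the adults and 1115 and 793 CPM in F11 and D6, both below every adult library. Markers of luminal progenitors and alveolar cells summed to 2311 to 5796 CPM in the adults, 12003 CPM in F11 and 40295 CPM in D6. Both lactation libraries thus went partly against their ML label, D6 the more so. Leaving out droplets with more than 1% of UMIs in that list, again a choice made after the values were seen, kept 225 of 261 cells in F11 and 138 of 158 in D6. D6 again lost a larger share of UMIs than of cells. There 2 UMIs made 6.63 CPM in the reduced sum, and 5 UMIs made 8.58 CPM in the whole one. Those progenitor and alveolar sums were then 5437 and 1907 CPM against 543 to 1416 CPM in the adults, and the ML markers 3208 and 939 CPM against 1702 to 2497 CPM, or 1168 and 916 CPM against 1702 to 2480 CPM without Calca. Markers of some other cell types, though not of all, were also higher in lactation ML sums. Fibroblast markers summed to 67.1 and 182 CPM in F11 and D6 against 116 to 1247 CPM in the adults. Red blood cell markers stood at 143 and 51.5 CPM against 45.4 to 87.8 CPM, and pericyte markers at 33.6 and 54.9 CPM against 26.0 to 37.6 CPM. Adipocyte markers summed to 359 and 1651 CPM in F11 and D6 against at most 20.9 CPM in the adults, immune markers to 28.6 and 163 CPM against at most 6.87 CPM, and endothelial markers to 31.1 and 182 CPM against at most 27.7 CPM. Leaving out alveolar droplets did not lower them in D6, where these 3 lists then stood at 1951, 242 and 338 CPM. The part of these cell types in the ML results was not tested.

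In basal cells, Synpo2, Gucy1a1, Lep and Amhr2 were among the genes that rose in lactation, and Etv4, Emid1 and Egr4 among those that fell. Many of the genes that rose stood near the level of the background cells. With edgeR's quasi-likelihood test on UMIs summed per library, 430 of 10468 genes passed a Benjamini-Hochberg adjusted p of 0.05, which is 4.11% of the genes tested, and 421 of the 430 were outside the cell rule. Of these, 359 rose (3.43%) and 71 fell (0.678%). With other-cell droplets left out, 107 of 10169 genes passed (1.05%), 92 up (0.905%) and 15 down (0.148%), with 101 outside the cell rule, and 103 of the 107 were among the 430. To stand above background, a gene had to be at least 2 times the CPM of the Ptprc and the Col3a1 cells of each library on its high side, where there were 20 or more of them, so the 13 Ptprc cells of F11 were not used. Of the genes with non-overlapping groups, 111 rises and 45 falls did so and 238 rises did not, and with droplets left out 26 rises and 8 falls did so and 60 rises did not. Without D6 136 genes passed, against 372 to 638 without any 1 of the others. The falls rested on both lactation libraries: 1 of the 136 fell, and without F11 12 of 381 did. In a sum over cells, fewer cells that carry a transcript and less transcript per cell cannot be told apart.

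Synpo2, Gucy1a1 and Tnni2 rose in both sets of sums. Synpo2, which encodes an actin-binding protein of muscle Z discs, stood at 11.4, 9.05 and 15.7 CPM in A10, P7 and D12 and at 138 and 157 CPM in F11 and D6. Both lactation libraries lay far above every adult library, at a log2 fold change of 3.96 ± 0.51 (SE) and an edgeR adjusted p of 0.000797 (0.00143 with droplets left out). Background cells of D6 held at most 1.21 CPM of Synpo2. The edgeR test of its rise against the change in background cells gave an adjusted p of 0.013, on few background UMIs (0 CPM in P7 and F11). Gucy1a1, a subunit of the soluble guanylate cyclase that senses nitric oxide, counted 4.52, 3.15 and 5.50 CPM in the adults and 35.2 and 70.6 CPM in lactation. Its groups were as clearly apart (log2 fold change 3.81 ± 0.49, edgeR adjusted p 0.000795, or 0.00226 with droplets left out). D6 Ptprc and Col3a1 cells, however, held 15.3 and 26.7 CPM of Gucy1a1, where A10 and P7 Col3a1 cells held 0 CPM. For Gucy1a1 the edgeR test against the change in background cells gave an adjusted p of 0.813. Tnni2, the fast skeletal troponin I, rose from 0.529, 0.394 and 0.458 CPM to 26.0 and 12.5 CPM (edgeR adjusted p 0.000639, or 0.000348 with droplets left out), but D6 Ptprc cells held 9.19 CPM, close to the D6 basal value. In the edgeR test of lactation against adult, these 3 genes kept an adjusted p under 0.05 when any 1 library was left out.

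Pcp4, Ckmt1, Amhr2 and Wfdc12 also rose in basal cells. Pcp4, a small calmodulin-binding protein, stood at 7.93, 3.54 and 2.38 CPM in the adults and 63.5 and 30.0 CPM in lactation (log2 fold change 3.73 ± 0.69, edgeR adjusted p 0.00984, or 0.0167 with droplets left out). Ckmt1, the mitochondrial creatine kinase, counted 1.94, 3.15 and 1.01 CPM against 20.7 and 16.9 CPM (3.71 ± 0.61, edgeR adjusted p 0.00424, or 0.00243), with no UMI in any lactation background cell. The groups of both genes were separate, with the higher Pcp4 in F11. Amhr2, the receptor of anti-Müllerian hormone, was almost absent from adult basal cells at 0.176, 0.394 and 0.183 CPM and reached 12.2 and 8.12 CPM in lactation (5.87 ± 0.80, edgeR adjusted p 0.00113, or 0.00256). Wfdc12, a small secreted protein of the whey acidic protein fold, stood at 0.705, 0 and 0.916 CPM against 29.1 and 12.5 CPM (5.35 ± 0.80, edgeR adjusted p 0.00212, or 0.000826). Neither gene exceeded 1.21 CPM in lactation background cells. In F11 Col3a1 cells, however, 1 UMI was worth 11.6 CPM, so the F11 levels of Ckmt1, Amhr2 and Wfdc12 were poorly resolved from background. Without F11, the library with the higher level of all 4 genes, the adjusted p of Pcp4, Ckmt1, Amhr2 and Wfdc12 was 0.177, 0.103, 0.0508 and 0.0968. Wfdc12 stood far higher in lactation ML cells (below), and ML markers were not among the lists used to leave out droplets. Those markers summed to 156 and 461 CPM in basal cells of F11 and D6, or 68.4 and 65.5 CPM with droplets left out. In adult basal cells they summed to 32.3 to 219 CPM. The part of ML RNA in the basal level of Wfdc12 was not tested.

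Lep, which encodes leptin, is best known as a hormone of fat cells and is one of the 10 adipocyte markers used above. In basal cells it counted 1.17, 2.75 and 0.183 CPM in the adults and 48.2 and 87.5 CPM in lactation. Both lactation libraries were well above all adults, with a log2 fold change of 6.21 ± 0.77 and an edgeR adjusted p of 0.000653. With other-cell droplets left out, the lactation values were 49.5 and 69.0 CPM and the adjusted p 0.00161, while the adipocyte list as a whole dropped from 2795 and 15639 to 471 and 383 CPM. Background cells of D6 held at most 3.63 CPM of Lep, and leaving out any 1 library left its adjusted p at 0.02 or lower. The part of adipocyte RNA in this rise was not tested further.

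**Figure D3:**
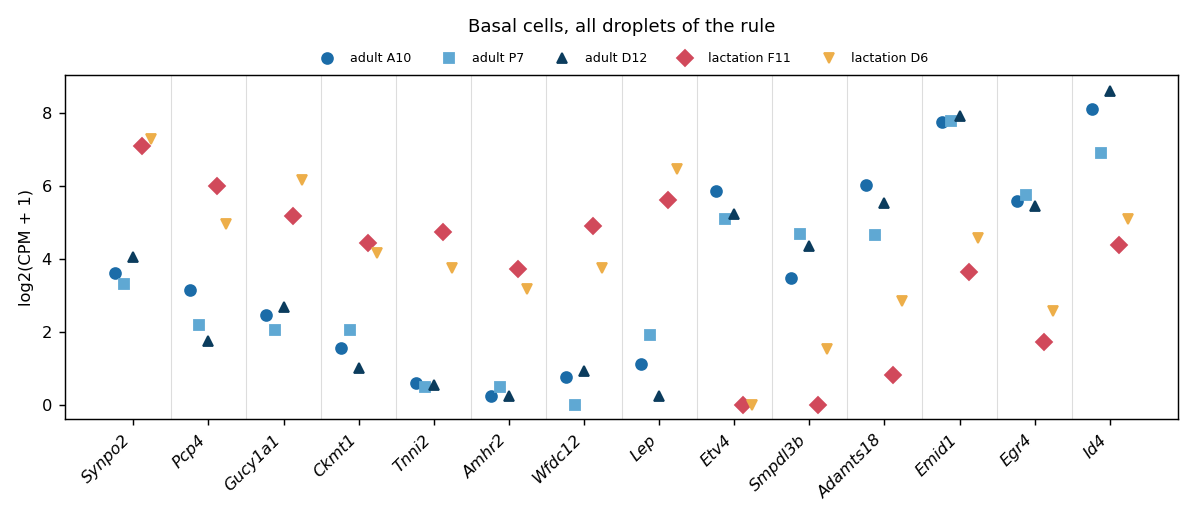
Level of 14 genes in the basal cells of each library, as log2(CPM + 1), over all droplets of the rule (1 point per library, coloured by library). For the genes that rose (Synpo2 to Lep) the F11 and D6 points lie above all 3 adult points, and for those that fell (Etv4 to Id4) below them, with Etv4 at 0 CPM in both lactation libraries.

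Etv4, Egr4, Id4 and Tcf7 fell in basal cells. Etv4, an ETS factor that acts downstream of fibroblast growth factor signals, stood at 57.1, 33.4 and 37.0 CPM in the adults and had no UMI in either lactation sum. It was at least 46.5-fold lower, taking 3 UMIs over both lactation libraries as the limit that a count of 0 allows (edgeR adjusted p 0.00122), or at least 27.0-fold lower with droplets left out (0.00816). Egr4, an early growth response factor, counted 47.6, 52.7 and 43.1 CPM against 2.29 and 5.00 CPM (log2 fold change -3.39 ± 0.56, edgeR adjusted p 0.00424, or 0.0367). The edgeR test of its fall against the change in background cells gave an adjusted p of 0.0261. It rests on few background UMIs, as Col3a1 cells of A10, P7 and F11 held 0 CPM of Egr4 and those of D6 7.27 CPM. Id4, an inhibitor of basic helix-loop-helix factors that marks basal cells, stood at 276, 119 and 391 CPM against 19.9 and 33.1 CPM. Its groups did not overlap (-3.03 ± 0.70, edgeR adjusted p 0.0356), but its adjusted p was 0.129 with droplets left out and over 0.05 without A10 (0.0593), D12 (0.0585), D6 (0.545) or F11 (0.312). Tcf7, a factor of WNT signalling, was at 37.5, 7.08 and 13.3 CPM in the adults and had no UMI in lactation, at least 25.5-fold lower (edgeR adjusted p 0.031, or 0.127 with droplets left out). Without D6 the adjusted p of Etv4, Egr4 and Tcf7 was 0.067, 0.15 and 0.481, and without F11 0.0141, 0.0811 and 0.141.

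Emid1, Adamts18 and Smpdl3b fell as well. Emid1, a matrix protein with an EMI domain, was even across the adults at 214, 221 and 243 CPM and stood at 11.5 and 23.1 CPM in lactation (log2 fold change -3.41 ± 0.56, edgeR adjusted p 0.00424, or 0.0217 with droplets left out). Adamts18, a secreted metalloproteinase, counted 64.9, 24.4 and 45.1 CPM against 0.765 and 6.25 CPM (-3.45 ± 0.78, edgeR adjusted p 0.0308, or 0.0379). Smpdl3b, a membrane lipid phosphodiesterase, stood at 10.3, 24.8 and 19.5 CPM against 0 and 1.87 CPM, a ratio of 14.3 with a 95% exact counting interval of 4.88 to 69.8 (edgeR adjusted p 0.029), and had no UMI in either lactation sum with droplets left out (at least 8.35-fold lower, 0.0381). Emid1, Adamts18 and Smpdl3b lost their call when a lactation library was left out, with adjusted p-values of 0.188, 0.196 and 0.148 without D6 and 0.126, 0.25 and 0.164 without F11. Intervals and limits of this kind cover counting error only.

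The remaining largest falls were of genes at low adult levels. Fam180a stood at 15.9, 82.2 and 36.3 CPM against 0.765 and 0 CPM (edgeR adjusted p 0.00763, or 0.0379 with droplets left out). The long non-coding gene model Gm32255 was at 13.2, 22.4 and 16.1 CPM in the adults and had no UMI in lactation (at least 14.6-fold lower, edgeR adjusted p 0.00347, or at least 8.50-fold lower with droplets left out, 0.0304). Both held in the second set of sums, but without D6 their adjusted p was 0.285 and 0.108. Btg3, an antiproliferative factor, P2ry1, a purinergic receptor, Wisp1, a matricellular protein induced by WNT, Ctxn1 and 6330403K07Rik passed only over all droplets, with adjusted p-values of 0.012 to 0.0471, and had adjusted p-values of 0.0749 to 0.221 with droplets left out.

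Shares of single cells were computed for Synpo2 and Etv4, chosen after their levels were seen. Each cell was thinned to 1500 UMIs, which left out shallower cells. Synpo2 was found in 2.02%, 0.686% and 2.19% of basal cells in A10, P7 and D12 and in 17.9% (Wilson 95% interval 14.9 to 21.4%) and 22.3% (18.5 to 26.7%) in F11 and D6. Without thinning, the shares were 4.81%, 1.87% and 7.12% against 21.2% and 34.7%, and D6 background cells, of 2584 median UMIs, held it in 0.197%, or 0.211% thinned. Etv4 was found in 5.47%, 5.26% and 4.55% of adult basal cells and in 0 of 536 F11 cells, which allows a share of up to 0.560%, and 0 of 390 D6 cells, which allows up to 0.769%. These limits are on cells with a UMI of Etv4 at this depth, at which milk genes took 32.9% of the basal UMIs of F11, and not on cells that express it.

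Lists of genes give the wider picture in basal cells, where the median change of all genes tested was -0.05 on the log2 scale and 3.43% of them rose and 0.678% fell. Of 19 contractile genes, Synpo2 and Pgm5, a phosphoglucomutase relative found at muscle adhesion sites, rose and none fell, with a median of 1.06. Pgm5 stood at 14.6, 28.3 and 23.5 CPM against 49.0 and 88.1 CPM (edgeR adjusted p 0.0352, or 0.0512 with droplets left out), and passed with 1 library left out only without P7 (0.0174), the others giving 0.0949 to 0.403. Classical smooth muscle genes did not pass the test. Tagln, for example, counted 3196, 5360 and 4265 CPM in the adults and 3681 and 3381 CPM in lactation (edgeR adjusted p 0.949). These values lay within the adult range before scaling, and the fit's scaling factors were 0.681 for F11 and 0.998 to 1.25 for the rest. At an unadjusted p under 0.05 the list held 6 genes, where 14.5% of all basal genes tested had such a p, and DESeq2 called 3. On simulated counts the test recovered only 2.04% of 2-fold changes. Of 13 genes of the oxytocin and calcium response, Plcb1, Plcb4, Rgs4 and Atp2b4 rose, with a list median of 0.85. Plcb1, a phospholipase C activated by oxytocin receptor signals, went from 18.3, 26.4 and 10.4 CPM to 49.0 and 95.0 CPM (edgeR adjusted p 0.0233, or 0.0322), with at most 7.27 CPM in D6 background cells, and lost its call without D12 (0.0968), D6 (0.349) or F11 (0.122). Levels of Atp2b4, Plcb4 and Rgs4 were not above background. With droplets left out only Plcb1 and Atp2b4 of 11 genes rose, and without D6 or F11 the adjusted p of Plcb4 was 0.709 and 0.0787 and that of Rgs4 0.729 and 0.112.

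Of 25 genes of basement membrane and matrix, 3 fell and none rose (median -0.18). These were the elastic fibre protein Fbln2 and the collagens Col16a1 and Col9a1. Fbln2 counted 181, 59.4 and 84.6 CPM against 3.82 and 6.25 CPM (edgeR adjusted p 0.00838, or 0.0153 with droplets left out), but A10 Col3a1 cells held 420 CPM of it, so its adult level was not above background, although its fall exceeded the background change by -4.77 ± 0.70 on the log2 scale (edgeR adjusted p 3.16e-09). Without D6 or F11 the adjusted p was 0.296 and 0.133. The adjusted p of Col16a1 and Col9a1 was 0.0386 and 0.0285 over all droplets, 0.0988 and 0.14 with droplets left out, 0.618 and 0.538 without D6 and 0.113 and 0.191 without F11, and that of Col16a1 was 0.0703 without A10. Of 25 genes of basal identity and adhesion only Id4 fell, and of 16 WNT and R-spondin genes only Wnt5b (edgeR adjusted p 0.0355, or 0.203 with droplets left out, and over 0.05 also without D12, D6 or F11, at 0.0889, 0.375 and 0.257). Among 13 genes of the insulin-like growth factor axis, Igfbp3, a growth factor binding protein, fell from 296, 361 and 450 CPM to 13.8 and 74.4 CPM (edgeR adjusted p 0.0418, or 0.0144). A10 Col3a1 cells held 303 CPM of Igfbp3, and it passed with 1 library left out only without P7 (0.0102), the others giving 0.0624 to 0.383. In the same list Igf1 and Igfbp6 rose, at levels not above background, and Igf1 was not called with droplets left out (0.124).

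Most genes that rose in the lists on milk, fat and immunity were not above background in basal cells. Of 20 milk proteins outside the cell rule 13 rose (median 4.58), and only Cd36 was above background. None of the 6 risen genes of fatty acid and sterol synthesis (of 21, median 1.34) and none of the 6 of antigen presentation (of 14, median 1.43) was above background. Fabp3, a fatty acid carrier of the secreting cell, is an example, at 3973 CPM in F11 basal cells and 3969 CPM in F11 Col3a1 cells. The largest rises near background were of the chemokines Ccl4 and Ccl3, the signalling regulator Rgs1 and Olah, an enzyme that ends fatty acid synthesis in the milk-making cell. Ccl4 had no UMI in the adults and 216 and 557 CPM in F11 and D6, and D6 Ptprc cells held 6593 CPM. Of 17 genes of lipid uptake and storage 8 rose (median 2.32), of which 4 were above background. Of 14 STAT5 targets and feedback genes Elf5 and Igf1 rose, and of 14 glucocorticoid-responsive genes Zbtb16, all 3 not above background. Of 14 proteases and inhibitors Adamts5 rose and Mmp2 fell, also not above background, and of 12 chemokines and inflammation genes Cxcl2 and Cxcl10 rose, likewise. Of 15 ion and water transport genes 4 rose (median -0.15), of which Aqp1 was above background. With other-cell droplets left out these counts were 12 of 19 milk proteins, 3 of 21 synthesis genes, 1 of 14 antigen presentation genes (H2-Aa, list median 0.62), 5 of 16 lipid uptake genes and 2 of 14 transport genes, and of all these only Muc15 was above background. Aqp1 was then at 11.7 and 10.3 CPM, below the 288 CPM of D6 Ptprc cells. Igf1, Mmp2 and Cxcl10 were not called with droplets left out, and Serpinf1, an inhibitor of the serpin family, fell (edgeR adjusted p 0.0237). Without D6 or F11 the adjusted p of Igf1 was 0.213 and 0.12, of Mmp2 0.558 and 0.299, of Cxcl10 0.149 and 0.448 and of Zbtb16 0.192 and 0.054, and Elf5 lost its call without F11 (0.593).

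No basal gene passed edgeR's test among 18 immediate early and heat shock genes, 17 genes of protein folding, 16 cell cycle genes, 11 hormone receptor partners or 14 adult ML genes. At an unadjusted p under 0.05 these lists held 0, 1, 3, 3 and 5 genes, where 14.5% of all basal genes tested had such a p, and DESeq2 called 0, 1, 0, 0 and 4. The cell cycle list had a median of -0.72. Of 10 progesterone- and estrogen-responsive genes only Id4 fell, and of 8 paracrine genes only Adamts18.

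Hbb-bs, Gpihbp1, Rbp7 and Cd36 were among the largest rises in basal cells. The beta globin Hbb-bs had no UMI in the adults and 681 and 6986 CPM in F11 and D6. Gpihbp1, which holds lipoprotein lipase on capillaries, counted at most 0.294 CPM in the adults and 265 and 1050 CPM in lactation, and Rbp7, a retinol binding protein of endothelium, at most 0.587 CPM against 406 and 2082 CPM. Cd36, the fatty acid translocase, stood at 415 and 2096 CPM against at most 1.06 CPM. All 4 passed in both sets of sums, with edgeR adjusted p-values of 0.000173 to 0.000453 over all droplets and 0.000193 to 0.00133 with droplets left out. In the 13 Ptprc cells of F11 red blood cell markers summed to 7326 CPM and endothelial markers to 802 CPM, above the 1219 and 366 CPM of F11 basal cells. The lists of other cell types moved together with these genes: 6 of 6 adipocyte, 8 of 9 endothelial, 6 of 6 immune, 6 of 8 pericyte and 4 of 5 red blood cell markers that were tested rose. With droplets left out, Hbb-bs stood at 46.8 and 20.7 CPM, below D6 Ptprc cells at 2268 CPM. Gpihbp1 then stood at 21.6 and 13.8 CPM (D6 Ptprc cells 314 CPM) and Cd36 at 124 and 87.9 CPM (701 CPM), so neither was above background. In the same sums 7 of the 12 largest rises called above background (Hbb-bt, Btnl9, Cdh5, Gm525, Adgrl4, Ptprb and Myct1) were too low to be tested. Hbb-bs and Hbb-bt are near-identical genes, as are members of the H2 and Krt6 families named below, and reads may have been split between copies.

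In ML cells, Wnk4, Kl, Wfdc12 and Cela2a were among the genes that rose in lactation. Nrxn3, Syn2, Upk3a, Fgb and Aqp5 were among those that fell. By edgeR's test 129 of 11175 genes passed (1.15%), 126 of them outside the cell rule, 112 up (1.0%) and 17 down (0.152%), and the median change of all genes was -0.08 on the log2 scale. With alveolar droplets left out 107 of 10898 passed (0.982%), 95 up (0.872%) and 12 down (0.110%), and 92 of them were among the 129. Above background and with non-overlapping groups were 40 rises and 16 falls, or 41 and 12 with droplets left out. The count turned on the lactation libraries: without D6 12 genes passed and without F11 38, none of them a fall, whereas without A10, P7 or D12 280, 264 and 284 passed.

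Wnk4, Kl and Erbb4 rose above the background level. Wnk4, a kinase that sets sodium, chloride and potassium transport, counted 2.79, 1.49 and 2.87 CPM in A10, P7 and D12 and 123 and 228 CPM in F11 and D6. Every lactation library was far above every adult one (log2 fold change 6.50 ± 0.62, edgeR adjusted p 0.00115, or 0.00151 with droplets left out), no UMI was found in lactation background cells, and the call held without any 1 library, at adjusted p-values of at most 0.0431. Kl, or Klotho, a membrane co-receptor of fibroblast growth factors, had no UMI in adult ML cells and 32.3 and 92.7 CPM in lactation. It was at least 1059-fold higher, against 3 UMIs over the adult sums (edgeR adjusted p 0.00115, or 0.00151), and lactation background cells held at most 1.21 CPM. Erbb4, a receptor of neuregulins, stood at 0.367, 0 and 0.958 CPM against 12.4 and 18.9 CPM (5.26 ± 0.91, edgeR adjusted p 0.0225, or 0.00807). In F11 Col3a1 cells 1 UMI was worth 11.6 CPM, so the F11 levels of Kl and Erbb4 were poorly resolved from background. Without D6 the adjusted p of Kl was 0.0581 and that of Erbb4 0.675, and without F11 0.0307 and 0.222.

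Wfdc12, Cela2a, Gldc, Spock1 and H2-Q1 rose too. Wfdc12 reached the highest level of these 5, at 28.2, 16.8 and 4.28 CPM in the adults and 2489 and 1248 CPM in lactation (log2 fold change 7.22 ± 1.05, edgeR adjusted p 0.00994, or 0.00914 with droplets left out). Cela2a, an elastase better known from the pancreas, counted 0.306, 3.40 and 1.75 CPM against 168 and 172 CPM (7.19 ± 0.83, edgeR adjusted p 0.00332, or 0.00277). The lactation libraries were almost equal in Cela2a, and F11 was the higher in Wfdc12. Gldc, the glycine decarboxylase, went from 0.245, 0.213 and 0.169 CPM to 17.4 and 39.5 CPM (edgeR adjusted p 0.00094, or 0.00139), and Spock1, a secreted proteoglycan, from 0.0918, 0.213 and 0 CPM to 19.9 and 5.15 CPM (edgeR adjusted p 0.00955, or 0.00591). H2-Q1, a class I histocompatibility gene, rose from 0.551, 0.213 and 0.113 CPM to 17.4 and 46.3 CPM (edgeR adjusted p 0.00358, or 0.00352). Leaving out a lactation library took the calls of Wfdc12 and Cela2a (0.196 and 0.112 without D6, 0.0964 and 0.057 without F11), and leaving out D6 those of Gldc (0.0704), Spock1 (0.0986) and H2-Q1 (0.255).

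Among the other largest rises, Acacb, which makes malonyl-CoA at mitochondria, Syt14, a synaptotagmin, Hephl1, a ferroxidase relative, the chemokine Ccl20 and 1810065E05Rik had at most 0.367 CPM in any adult library. In lactation they reached 2.49 to 12.4 CPM in F11 and 22.3 to 27.5 CPM in D6 (edgeR adjusted p-values of 0.00438 to 0.0298). In the F11 ML sum 12.4 CPM is 10 UMIs, and in F11 Col3a1 cells 1 UMI was worth 11.6 CPM. Their F11 levels were therefore not resolved from background. Hephl1, Ccl20 and 1810065E05Rik were too low to be tested with alveolar droplets left out, and D6 background cells held up to 12.1 CPM of Acacb and 4.85 CPM of Hephl1. With those droplets left out the naming rule also took in Slc13a2, a citrate transporter, Stard4, a sterol carrier, and Tox, a nuclear factor, at edgeR adjusted p-values of 0.00277 to 0.0119, or 0.00449 to 0.0248 over all droplets. Without D6 the adjusted p of Acacb, Slc13a2, Stard4 and Tox was 0.408, 0.925, 0.255 and 0.437, and without F11 that of Acacb, Slc13a2 and Tox 0.0588, 0.0699 and 0.295, and that of 1810065E05Rik 0.108.

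**Figure D4:**
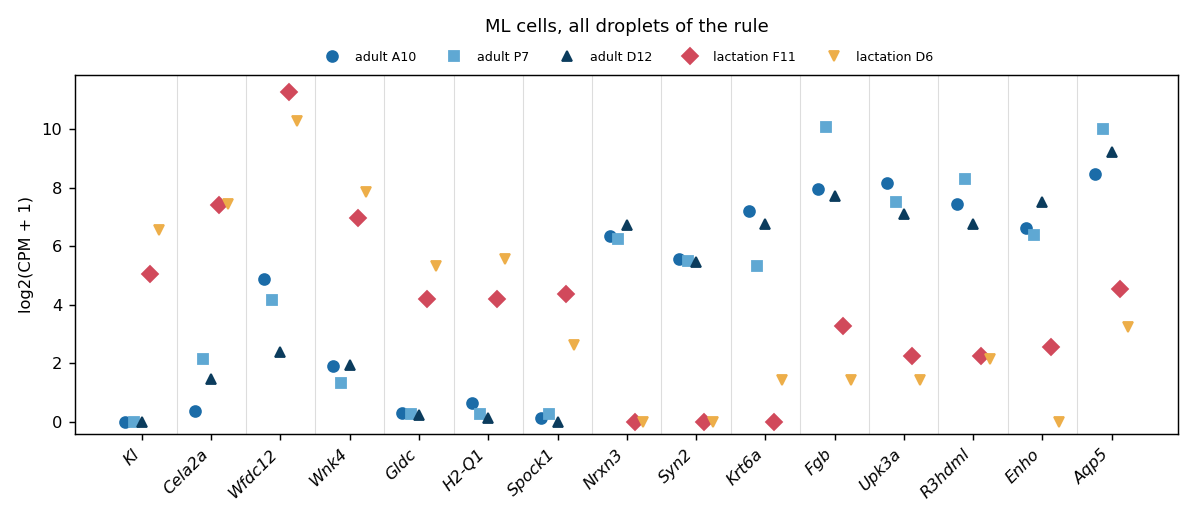
Level of 15 genes in the ML cells of each library, as log2(CPM + 1) (1 point per library, coloured by library). The F11 and D6 points lie above the 3 adult points for the genes that rose (Kl to Spock1) and below them for those that fell (Nrxn3 to Aqp5), with Nrxn3 and Syn2 at 0 CPM in lactation.

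Nrxn3, Syn2, Rasgrf1, Trpc6, Upk3a and R3hdml fell in ML cells. Nrxn3, a neurexin, stood at 81.6, 75.1 and 104 CPM in the adults and had no UMI in lactation, at least 40.9-fold lower (edgeR adjusted p 0.00633, or 0.00807 with droplets left out). Syn2, a synapsin, was at 46.7, 44.5 and 42.9 CPM in the adults and also had no UMI, at least 21.0-fold lower (edgeR adjusted p 0.0102, or 0.0127). The adult libraries were even in both, and the lactation libraries equal at 0. Rasgrf1, an exchange factor of Ras, went from 31.3, 37.0 and 42.3 CPM to no UMI, at least 16.3-fold lower (edgeR adjusted p 0.0122, or 0.0184), and Trpc6, a calcium-permeable channel, from 17.8, 52.1 and 16.6 CPM to no UMI, at least 9.41-fold lower (edgeR adjusted p 0.047, or 0.0685). Upk3a, a uroplakin of the cell membrane, counted 289, 182 and 137 CPM against 3.73 and 1.72 CPM (log2 fold change -5.76 ± 0.84, edgeR adjusted p 0.00994, or 0.0121). R3hdml, a secreted protein of the cysteine-rich family, stood at 172, 316 and 107 CPM against 3.73 and 3.43 CPM (-5.30 ± 0.77, edgeR adjusted p 0.00994, or 0.0127).

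Krt6a, Fgb, Aqp5, Enho, Mycl and S100a14 also fell. Krt6a, a keratin of ducts and of stressed epithelium, counted 149, 39.2 and 107 CPM in the adults and 0 and 1.72 CPM in lactation, a ratio of 174 with a 95% exact counting interval of 31.3 to 6888 (edgeR adjusted p 0.0298), and had no UMI in either lactation sum with droplets left out (at least 42.9-fold lower, 0.028). Fgb, the fibrinogen beta chain, stood at 247, 1078 and 208 CPM against 8.70 and 1.72 CPM (log2 fold change -5.97 ± 1.09, edgeR adjusted p 0.0293, or 0.0344). Aqp5, a water channel, was at 356, 1039 and 600 CPM against 22.4 and 8.58 CPM (-4.88 ± 0.84, edgeR adjusted p 0.0206, or 0.024), and P7 was the highest library for both Fgb and Aqp5. Enho, a secreted metabolic peptide, counted 98.2, 82.6 and 181 CPM against 4.97 and 0 CPM (-5.02 ± 0.95, edgeR adjusted p 0.0349, or 0.0425). Mycl, a relative of Myc, and S100a14, a calcium-binding protein, fell from 25.4 to 34.5 CPM and from 46.0 to 84.3 CPM to at most 1.24 and 3.73 CPM (edgeR adjusted p 0.0313 and 0.0448, or 0.0479 and 0.0536). For the 12 largest falls in ML cells the adjusted p lay between 0.248 and 0.842 without D6 and between 0.106 and 0.406 without F11, so each of these calls needed both lactation libraries, and each was kept without any 1 adult library.

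Shares of ML cells, thinned to 1500 UMIs as above and for 4 genes chosen after their levels were seen, moved the same way. Wfdc12 was found in 0.934%, 0.443% and 0.300% of adult ML cells and in 44.0% (Wilson 95% interval 37.9 to 50.2%) and 32.9% (25.8 to 40.9%) of those of F11 and D6, with 0.211% of D6 background cells. Tmprss6, a membrane protease known from iron control in the liver, was found in 0.732%, 1.33% and 0.850% against 28.2% and 32.2%, with none of 473 D6 background cells, which allows up to 0.634%. For Tmprss6 no test on UMIs summed per library is given here, and its shares have cells and not libraries as the unit. Ly6d, a surface antigen, was found in 80.8%, 79.5% and 88.7% of adult ML cells but in 6.05% (3.70 to 9.74%) and 0.685% (0.121 to 3.78%) in lactation. Aqp5 was found in 36.8%, 60.2% and 50.7% against 0.806% and 0.685%. Without thinning these shares were 0.726 to 2.25% against 49.8% and 36.7% for Wfdc12, 2.80 to 3.34% against 43.7% and 37.3% for Tmprss6, 86.5 to 98.0% against 9.58% and 0.633% for Ly6d, and 75.6 to 87.9% against 4.98% and 1.90% for Aqp5. In A10 background cells, whose median depth was 4164 UMIs, Ly6d was found in 18.8%, or 7.83% thinned.

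Of all ML genes tested, 1.0% rose and 0.152% fell. Most members of the lists were not called either, but some lists held a larger share of calls. Of 16 enzymes and surface genes of the adult ML cell, Fgb and Ly6d fell and none rose (median -1.35). Ly6d counted 2580, 2930 and 3383 CPM against 117 and 84.1 CPM (log2 fold change -4.45 ± 0.90, edgeR adjusted p 0.0494), but its adjusted p was 0.207 with droplets left out, 0.896 without D6 and 0.411 without F11. Of 15 hormone receptor partners Esrrb, an estrogen-related receptor, rose from 2.82, 2.13 and 1.75 CPM to 22.4 and 17.2 CPM (edgeR adjusted p 0.0167, or 0.0157), and the list median was 0.23. Of 10 genes of the oxytocin and calcium response, Itpr2, a calcium channel of the endoplasmic reticulum, and Plcb1 rose, with a list median of 0.42. Itpr2 stood at 19.9, 9.36 and 19.2 CPM against 84.5 and 208 CPM (edgeR adjusted p 0.0225, or 0.0177), and Plcb1 at 12.8, 16.8 and 9.80 CPM against 53.4 and 113 CPM (edgeR adjusted p 0.015, or 0.016). Esrrb, Itpr2 and Plcb1 lost their calls without D6 (0.296, 0.635 and 0.600) and without F11 (0.272, 0.106 and 0.0896).

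Of 13 paracrine genes and 12 progesterone- and estrogen-responsive genes edgeR called none in ML cells, where it called 1.15% of all genes. Each list held 6 genes at an unadjusted p under 0.05, a larger share than the 10.1% of all ML genes tested, and DESeq2 called 2 and 1. The list medians were 0.02 and 0.35. Stc2, a secreted stanniocalcin, stood at 957, 2751 and 214 CPM in the adults and 12.4 and 0 CPM in lactation, and although the groups did not overlap the adjusted p was 0.0682. Calca, which encodes calcitonin, was at 1689 CPM in F11 and 12.01 CPM in D6 against 0.0306, 14.7 and 22.9 CPM in the adults, so only F11 was high (edgeR adjusted p 0.219). Fxyd2, a regulator of the sodium pump, counted 30.0, 106 and 493 CPM against 3078 and 4858 CPM (edgeR adjusted p 0.113), with D12 closest to lactation.

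In ML cells, no gene that rose in the lists on milk, fat and antigen presentation met the limit for a level above background, which had to be met in both lactation libraries. Of 21 milk proteins outside the rule 7 rose (median 4.30), of 22 genes of fatty acid and sterol synthesis 4 (median 2.20) and of 15 of lipid uptake and storage 5 (median 0.99), and none was above background. These shares were larger than the 1.0% of all ML genes that rose. Fabp3 stood at 2948 CPM in F11 ML cells, beside 3969 CPM in F11 Col3a1 cells, but at 1641 CPM in D6 ML cells, above the 361 and 332 CPM of D6 Ptprc and Col3a1 cells, and at 355 CPM there with alveolar droplets left out. Wfdc17, Pip and Hbb-bs were the other largest rises near background. Of 15 genes of antigen presentation H2-Aa and H2-Ab1 rose (median -0.67), of 25 matrix genes Nid1 and of 15 ion and water transport genes Slc34a2, none above background, and in the last list Aqp5 fell. Of 15 chemokines and inflammation genes Ccl20 and Saa1 rose, of which Ccl20 met the limit, at an F11 level that F11 background cells did not resolve. With alveolar droplets left out 7 of 19 milk proteins, 2 of 22 synthesis genes, 5 of 15 lipid uptake genes and 3 of 15 antigen presentation genes rose, Aqp1 joined Slc34a2, and Saa3 was the only chemokine or inflammation gene called. Leaving out a lactation library took the calls of Nid1 (0.562 without D6 and 0.057 without F11), Slc34a2 (0.63 and 0.102), H2-Ab1 (0.437 and 0.137) and Saa1 (0.309 and 0.5), and leaving out D6 that of H2-Aa (0.925).

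Over all droplets, no ML gene passed edgeR's test among 17 contractile genes, 21 of basal identity, 14 proteases, 15 STAT5 targets, 14 glucocorticoid-responsive genes, 14 of the insulin-like growth factor axis, 18 immediate early genes, 18 of protein folding, 16 of the cell cycle and 13 WNT genes. At an unadjusted p under 0.05 they held 1, 4, 4, 5, 4, 2, 1, 1, 3 and 4 genes, against 10.1% of all ML genes, and DESeq2 called 0, 1, 1, 3, 1, 1, 0, 0, 0 and 0. With alveolar droplets left out, Socs2 of the STAT5 list and Pdk4 of the glucocorticoid list passed, both above background. Socs2, a suppressor of cytokine signalling, then stood at 58.9, 69.5 and 45.1 CPM in the adults and 330 and 302 CPM in lactation (log2 fold change 2.68 ± 0.54, edgeR adjusted p 0.0474, against 0.062 over all droplets). Pdk4, a kinase of pyruvate dehydrogenase, stood at 2.73, 5.49 and 3.96 CPM against 44.97 and 16.6 CPM (3.33 ± 0.63, edgeR adjusted p 0.0371). The cell cycle list had a median of -1.47, or -1.39 with genes at 0 in a group set at their limit.

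The change from adult to lactation was then set against the change in Ptprc or Col3a1 cells, in 1 edgeR fit with the library as a block. D12 had too few such cells, so A10 and P7 stood for the adults, whose background cells were all Col3a1 cells. In basal cells 355 of 10255 genes changed differently from the background (3.46%), 239 with a more positive and 116 with a more negative change, and in ML cells 282 of 7952 (3.55%), 129 and 153. Without D6 these counts were 82 and 53, without P7 437 and 172, without A10 135 and 108, and without F11 170 and 124. Among the genes described above, Synpo2 differed by 6.50 ± 1.81 on the log2 scale (edgeR adjusted p 0.013), Egr4 by -10.0 ± 2.97 (0.0261), Wnk4 by 12.7 (0.044) and Amd1, the S-adenosylmethionine decarboxylase of polyamine synthesis, by -2.90 ± 0.90 in ML cells (0.0387). Etv4, Lep and Aqp5 gave adjusted p-values of 0.149, 0.991 and 0.937, which does not show that they changed like the background, since their counts in background cells were 0 or a few UMIs. Of other basal genes above, Gucy1a1, Pcp4, Tnni2 and Emid1 gave 0.813, 0.948, 0.467 and 0.124 by the same test. Ckmt1, Amhr2 and Wfdc12 did not pass it in basal cells, while Fam180a and Wisp1 did (0.000516 and 0.0077). Background counts of these genes were low too, but D6 Col3a1 cells held 26.7 CPM of Gucy1a1. The differences of Synpo2 and Egr4 also rest on 0 or a few background UMIs, and Wnk4 had none in lactation background cells. Their sizes are therefore not well measured. D6 Col3a1 cells held 7.27 CPM of Egr4, above the 5.00 CPM of D6 basal cells. A level not above background is not the same as a change like that of background cells. Several of the genes below were expressed by Col3a1 cells themselves, however. In A10 and P7 these cells held 2873 and 4171 CPM of Igfbp6, 682 and 402 CPM of Lpl and 594 and 362 CPM of Nid1. For such genes an excess over the background change cannot tell free RNA from a rise in the cells compared. The lactation background also held Ptprc cells, which the adult background lacked. In basal cells, the rises of Igfbp6 (4.58 ± 0.68, edgeR adjusted p 5.95e-09), Igf1 (4.51 ± 0.80, 2.65e-06), Adamts5 (3.96 ± 0.66, 3.68e-07), Zbtb16 (3.38 ± 0.83, 0.00315) and Atp2b4 (2.65 ± 0.80, 0.0329), all of levels not above background, exceeded the background change by the log2 amounts given. The same excess over the background change was found for Lpl, Fabp4, Cd36 and Thrsp in basal cells (4.84 to 6.33, edgeR adjusted p 4.28e-15 to 0.000418) and for the fall of Mmp2 (-2.95 ± 0.63, 0.00023). In ML cells, so did those of Lpl (4.67 ± 0.64, edgeR adjusted p 1.56e-10), Cd36 (3.73 ± 0.81, 0.000361), Thrsp (3.30 ± 0.91, 0.0126) and Fabp4 (2.98 ± 0.70, 0.0014), genes of lipid handling that fat cells also express, beside the adipocyte sums given above. It was also found in ML cells for Nid1, a basement membrane protein (5.47 ± 0.67, edgeR adjusted p 4.55e-13), and Xdh, a xanthine oxidoreductase of the milk fat globule (4.50 ± 0.81, 6.11e-06). Without D6 or F11 the lactation against adult call of Lpl in ML cells was lost (0.411 and 0.0746), as was that of Fabp4 (0.608 and 0.137), and that of Atp2b4 in basal cells was lost without D6 (0.0719).

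Basal and ML cells of the same libraries were compared in their change, again with the library as a block. The change differed for 125 of 12158 genes (1.03%), 90 more positive in basal cells and 35 more positive in ML cells. Without D6, F11 or A10 22, 24 and 27 genes passed, and without P7 or D12 237 and 260. As basal minus ML on the log2 scale, the difference for Wnk4, which rose in ML cells, was -4.57 ± 0.67 (edgeR adjusted p 0.0178). Ckmt1, which rose in basal cells, had a more positive change there (3.70 ± 0.69, edgeR adjusted p 0.0454). Krt6a and Enho fell in ML cells, and their basal minus ML differences were 8.08 ± 1.17 (edgeR adjusted p 0.0178) and 6.18 ± 0.57 (0.00367). Amd1, at 164, 176 and 146 CPM in adult ML cells and 6.21 and 12.01 CPM in lactation, had a more negative change in ML cells (3.098 ± 0.43 as basal minus ML, edgeR adjusted p 0.0172). For Synpo2, Plcb1 and Wfdc12 the difference between classes had adjusted p-values of 0.42, 0.501 and 0.356.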

How the data were processed

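Cells, genes and lists were chosen with earlier results of these data known. The deposited values are raw UMI counts per gene and barcode, made by the authors with Cell Ranger (3.0.2 in the file headers, 3.1.0 in the submitters' processing notes), with barcodes of at least 500 reads exported. Counts were summed per library over the cells of a class where it had 20 or more cells and tested with edgeR 4.0.16 (quasi-likelihood, TMM, filterByExpr, Benjamini-Hochberg over all genes tested, threshold 0.05). SE is the fold change divided by the root of F. DESeq2 1.42.0 was an alternative. Named genes were those called, with non-overlapping groups and at least 2 times the background cells' CPM: the 12 largest rises and falls per class, the same on sums with droplets left out, the 4 largest rises near background, and up to 4 members per list. Of 31053 features, 71 share a symbol and were kept by identifier. No doublet caller was run, and a stricter keratin rule and the sums with droplets left out stand in for it. A10 shared 90, 180 and 150 barcode sequences with D12, F11 and D6, D12 shared 93 with F11 and 72 with D6, and F11 shared 134 with D6. The alternatives with droplets left out, with 5 keratin UMIs and with wider background cells were added after the data were seen. On simulated counts the test recovered 28.6% of 4-fold and 2.04% of 2-fold changes in basal cells (10181 genes) and 28% and 0% in ML cells (11076 genes). The simulated spread between libraries (dispersion) was below the fitted 0.213 in basal and 0.237 in ML cells. The changed genes were drawn from better counted ones, so recovery in these data may be lower. Some genes that the naming rule takes in are not reported here.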

Additional observations from a re-analysis of the deposited data

Results flagged for a closer look

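The change from adult to lactation differed between basal and ML cells, by the edgeR test of the difference with the library as a block, for 12 of the genes named for the size of their change. Some members of the gene lists passed this test as well. Values are basal minus ML on the log2 scale. Blood and endothelial genes rose more in basal sums: Hba-a1 by 10.4 ± 1.28 (SE, adjusted p 0.0109), Rbp7 by 5.98 ± 0.87 (0.0178), Btnl9 by 5.47 ± 0.97 (0.0461) and Gpihbp1 by 4.69 ± 0.68 (0.0332). Adipocyte, red blood cell and endothelial markers moved with these in the same basal sums, and Hba-a1 in basal cells had an adjusted p of 0.079 with other-cell droplets left out. Their part in these differences was not tested.

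Others of the 12 with a more positive change in basal cells were Krt6a (8.08 ± 1.17, edgeR adjusted p 0.0178), Enho (6.18 ± 0.57, 0.00367), Ckmt1 (3.70 ± 0.69, 0.0454), Cdk19 (3.62 ± 0.52, 0.0178) and Amd1 (3.098 ± 0.43, 0.0172). So had list members such as Aqp1 (5.32 ± 0.49, edgeR adjusted p 0.00367), Fabp4 (3.30 ± 0.38, 0.00911) and Zbtb16 (3.25 ± 0.60, 0.045). In ML cells Krt6a, Enho and Amd1 fell, while Cdk19 had an edgeR adjusted p of 0.0701 over all ML droplets and 0.0437 with alveolar droplets left out.

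Of the 12, those with a more positive change in ML cells were Tox (-6.26 ± 1.04, edgeR adjusted p 0.0317), Wnk4 (-4.57 ± 0.67, 0.0178) and Stard4 (-4.18 ± 0.54, 0.0126). List members such as Itpr2 (-3.05 ± 0.45, edgeR adjusted p 0.0178), Socs2 (-3.01 ± 0.38, 0.0115) and Pdk4 (-2.82 ± 0.44, 0.0251) had one too. D6 Col3a1 cells held 9.69 CPM of Tox and 55.7 CPM of Stard4, against 10.3 and 94.4 CPM in D6 ML cells. With alveolar droplets left out, Stard4 stood at 163 CPM in D6 ML cells, and over all droplets its ML change exceeded that in background cells by 5.65 ± 1.13 (edgeR adjusted p 7.67e-05). Col3a1 cells of A10 and P7 themselves held 10.3 and 40.2 CPM of Stard4, so this excess cannot tell free RNA from a rise in ML cells.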

How the results depend on the processing

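No named gene reversed its direction: of 1305 values of 80 basal genes 1116 kept their call and 189 lost it, 98 of these by leaving out 1 library, and of 871 values of 54 ML genes 759 kept it and 112 lost it, 73 by leaving out 1 library. The number of genes called moved more. In basal cells, 430 became 1198 with no filter on low counts, 963 with the pregnancy libraries in the fit, 198 with cells thinned to 1500 UMIs, 99 under the stricter keratin rule and 107 with other-cell droplets left out. In ML cells, 129 became 528 with no filter, 335 with the pregnancy libraries, 81 with cells of 1000 or more genes, 80 with thinned cells and 365 by DESeq2. DESeq2 gave 209 genes in place of 355 for basal against background cells and 364 in place of 125 for basal against ML cells, where the stricter keratin rule gave 71. The causes were not tested. Leaving out 1 library gave 136 to 638 genes in basal cells, 12 to 284 in ML cells, 82 to 437 for basal against background, 53 to 172 for ML against background and 22 to 260 for basal against ML cells, the lowest each time without D6. A lone lactation library was then assumed to vary like the adults. Of the 606 basal genes that DESeq2 called, 448 were higher and 158 lower. The other alternatives kept each count within 1.5 times. Without scaling beyond library totals the median change moved by -0.31 in basal and -0.43 in ML cells, and the split of higher and lower calls was 322 and 126 in basal cells and 101 and 33 in ML cells. For ML against background cells DESeq2 split 208 calls into 144 and 64. No paired analysis was possible because adult and lactation libraries came from different pools of mice. Depth was one limit: ML cells of F11 and D6 gave 804690 and 582722 UMIs, so a gene below a few CPM could not be resolved there.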

Other observations

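The 4 FVB/NJ pregnancy libraries, which entered only an alternative fit, give the levels of the same genes between the 2 stages, as values without a test. In basal cells, Synpo2 stood at 30.9 and 30.8 CPM at pregnancy day 12.5 (libraries H and G) and 76.7 and 86.6 CPM at day 18.5 (F4 and B4), between the adult and lactation values. Lep stood at 3.95 and 4.26 CPM and then 44.99 and 60.07 CPM, so the day 18.5 libraries were already near lactation. Amhr2 counted 0.682 and 0.838 CPM and then 10.3 and 9.58 CPM. Etv4 stood at 18.9 and 17.5 CPM and then 2.59 and 5.35 CPM. Egr4, in contrast, stood at 144, 182, 113 and 39.3 CPM, of which only the last was within the adult range or below.

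In ML cells, Wfdc12 stood at 4969 and 4336 CPM at day 12.5, above both lactation libraries, and at 1694 and 1538 CPM at day 18.5, between them. Kl counted 6.36 and 3.87 CPM and then 28.2 and 18.6 CPM, and Wnk4 50.9 and 60.9 CPM and then 145 and 95.4 CPM. Cela2a stayed low in all 4 pregnancy libraries, at 0.967 to 8.81 CPM, against 168 and 172 CPM in lactation. Aqp5 (2.77 to 8.10 CPM), Ly6d (0 to 3.47 CPM) and Fgb (0 to 0.484 CPM) were low in every pregnancy library. Calca, high in only 1 of the 2 lactation libraries, stood at 2566, 2283, 1303 and 668 CPM.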
